A study of Mus musculus with 20 samples.

Results

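The gene expression response that fetal mouse livers shared when their dams had either of 2 inherited defects in fatty acid use was examined in 16 of 20 RNA sequencing libraries. Every liver came from a fetus at embryonic stage E17.5 of a dam fasted for 24 h, strain label C57BL/6, with 2 female and 2 male fetuses in each group of 4. In the Ppara arm, 4 fetuses heterozygous for the Ppara deletion came from Ppara knockout dams (KODam_HetFetus) and 4 from Ppara heterozygous dams (HetDam_HetFetus), so that all 8 fetuses and the control dams carried 1 deleted allele. In the Cpt2 arm, 4 fetuses with the genotype label Cpt2f/f came from dams labelled Cpt2f/f with Albumin-Cre, a Cre recombinase driven in hepatocytes by the albumin promoter (Cpt2LKODam_FloxFetus), and 4 Cpt2f/f fetuses came from Cpt2f/f dams without Cre (FloxDam_FloxFetus). The titles of the Cpt2 arm and the design text call some of these mice wild type where the genotype labels do not. The 4 knockout fetuses of knockout dams (KODam_KOFetus) were left out of the fit, because they lack PPARA themselves. The tested value was the pooled maternal defect effect, the mean difference between the 8 livers of KODam_HetFetus and Cpt2LKODam_FloxFetus and the 8 livers of HetDam_HetFetus and FloxDam_FloxFetus, with the arm as a block. A gene was tested where its log2 value reached 0 in at least 4 of the 20 libraries, which 11807 of 45802 table entries did.

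In a fasting mammal the liver takes up fatty acids released from fat tissue, burns part of them in mitochondria and exports the rest as ketone bodies and lipoproteins. PPARA is the fatty acid-activated nuclear receptor that turns on the genes of this programme, and CPT2 is the inner mitochondrial membrane enzyme that hands long-chain fatty acids to beta-oxidation. A dam without either of them handles fasting poorly, while the fetus, whose liver is still a main site of blood formation and is only acquiring its metabolic functions, depends on what the placenta delivers. The comparison asks which fetal genes differ after either maternal defect, and the fetal genotype label is the same on both sides of each arm.

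The pooled effect was called for 3563 of the 11807 tested genes, which is 30.2% (limma, Benjamini-Hochberg adjusted p under 0.05). Of these, 2130 rose (18.0% of tested genes) and 1433 fell (12.1%). A change of at least 2-fold was reached by 182 of the genes that rose and 216 of those that fell. Every share of a gene list given below for the full fit stands against these 18.0% and 12.1%. The median difference over all tested genes was 0.07 on the log2 scale for the pooled effect, 0.14 in the Ppara arm and -0.01 in the Cpt2 arm.

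The values are log2 values that the authors had quantile normalized, with no counts and unknown depth, and 23334 to 26255 genes had a value in a library. Libraries correlated with each other at 0.907 to 0.986 across genes. Liver identity was clear in all 16: Alb, the albumin gene, lay between 14.52 and 16.15 on the log2 scale. Markers of neighbouring organs stood high in 2 libraries of the fit, with skeletal muscle markers at 11.1 times the median of all libraries in HetDam_HetFetus replicate 4 and exocrine pancreas markers at 8.98 times in Cpt2LKODam_FloxFetus replicate 2. Stomach and intestine markers summed to 113 to 244 in KODam_HetFetus against 364 to 636 in HetDam_HetFetus, after undoing the logarithm. Kidney and adrenal markers summed to 8.17 to 41.0 against 70.9 to 104 there. Sums of the other neighbouring organs overlapped in the Ppara arm, and all of them overlapped in the Cpt2 arm. Without HetDam_HetFetus replicate 4 and Cpt2LKODam_FloxFetus replicate 2 together 1881 genes rose and 1405 fell, in a setting chosen after the data were seen. How much of that change comes from fewer libraries was not tested. Beyond that setting, the part of the neighbouring-organ markers in the calls was not tested. On the first principal component, which held 36.4% of the variance, KODam_HetFetus replicates 1 and 2 lay at -60.0 and -54.8, replicates 3 and 4 at -32.1 and -33.0, and Cpt2LKODam_FloxFetus replicates 1 to 4 at 7.54, 22.3, 1.90 and -29.2. The control livers lay between 16.2 and 31.2 in HetDam_HetFetus and between 18.1 and 26.8 in FloxDam_FloxFetus. A number in the sample descriptions, which no label explains, is shared by KODam_HetFetus replicates 1 and 2 and by FloxDam_FloxFetus replicates 3 and 4, which are therefore presumed littermates. The main fit treats them as independent, and with litter as a random block 1559 genes rose and 908 fell. KODam_HetFetus replicates 1 and 2 and Cpt2LKODam_FloxFetus replicate 4, which lay farthest toward the knockout-dam end in their groups, were left out together in a setting chosen after the data were seen. Without them 566 genes rose and 330 fell, in a fit with 13 libraries in place of 16, and the median difference over all tested genes was 0.09 on the log2 scale. How much of the drop in calls comes from the smaller number of libraries was not tested. Counts without these 3 libraries are given beside the gene groups below. They stand against these 566 rises and 330 falls over all tested genes, where the full fit had 2130 and 1433.

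The fetal levels of both targeted genes showed no call, and no group in the fit lacks either gene in the fetus. Fetal Ppara had log2 values of 2.17, 1.81, 3.05 and 3.22 in KODam_HetFetus against 2.94, 2.86, 3.47 and 3.25 in HetDam_HetFetus, and 3.27 to 3.44 in Cpt2LKODam_FloxFetus against 2.88 to 3.71 in FloxDam_FloxFetus. The pooled difference was -0.26 with a standard error of 0.20 (adjusted p = 0.34, limma). Fetal Cpt2 differed by 0.02 with a standard error of 0.12 (adjusted p = 0.893, limma).

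How much of the pooled effect was common to the arms was read from the arms themselves, since a pooled call can rest on 1 arm. In the Ppara arm alone 4462 genes were called (37.8%), of which 2947 rose (25.0%) and 1515 fell (12.8%), whereas the Cpt2 arm gave 0 calls with limma, with 656 genes higher (5.56%) and 725 lower (6.14%) at an unadjusted p under 0.05. No gene was therefore called in both arms separately. All 4 defect livers lay on 1 side of all 4 controls in 4227 genes of the Ppara arm (36.3%) and in 703 of the Cpt2 arm (6.03%), where 366 were higher (3.14%) and 337 lower (2.89%). In 328 of the 11651 genes with all 16 values (2.82%) this held in both arms with 1 direction. Of these, 196 were higher (1.68%) and 132 lower (1.13%) in the livers from defect dams, and 3 genes separated in both arms in opposite directions. Among the 328, the median size of the difference was 0.85 on the log2 scale in the Ppara arm and 0.47 in the Cpt2 arm, and 315 had the larger difference in the Ppara arm. The difference between the arms was tested for every gene and gave 0 calls with limma, with 2309 genes (19.6%) at an unadjusted p under 0.05. That count rests on 1 library, since 549 genes differed between the arms without Cpt2LKODam_FloxFetus replicate 4. That library lay nearest to KODam_HetFetus of its group on the first principal component and was singled out after the data were seen. The 549 calls therefore do not show by themselves that the arms are unequal. Adjusted p-values without it, given below for single genes, carry the same limit.

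The arms share no library, so each can be read on genes chosen in the other. Calls made from the 8 libraries of the Ppara arm alone numbered 2774 rises and 1473 falls. Of those rises 86.1% were higher in Cpt2LKODam_FloxFetus than in FloxDam_FloxFetus, where 48.9% of all tested genes were higher, and their median difference in the Cpt2 arm was 0.17 on the log2 scale. Of those falls 92.0% were lower in the Cpt2 arm, where 51.1% of all genes were lower, with a median difference of -0.32. The 4 livers from dams without liver Cpt2 differed in this: the share of Ppara-arm rises above the FloxDam_FloxFetus mean was 49.7%, 59.5%, 87.5% and 94.6% in replicates 1 to 4, against 34.9%, 54.4%, 57.1% and 52.8% of all genes. Replicate 4 had the highest share, and without it 71.0% of the rises were higher and 80.4% of the falls lower, with medians of 0.09 and -0.20. Across the 11798 genes with both values, the differences in the arms had a Pearson correlation of 0.56 and a Spearman correlation of 0.61, a description over genes that are not independent of each other.

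**Figure D1:**
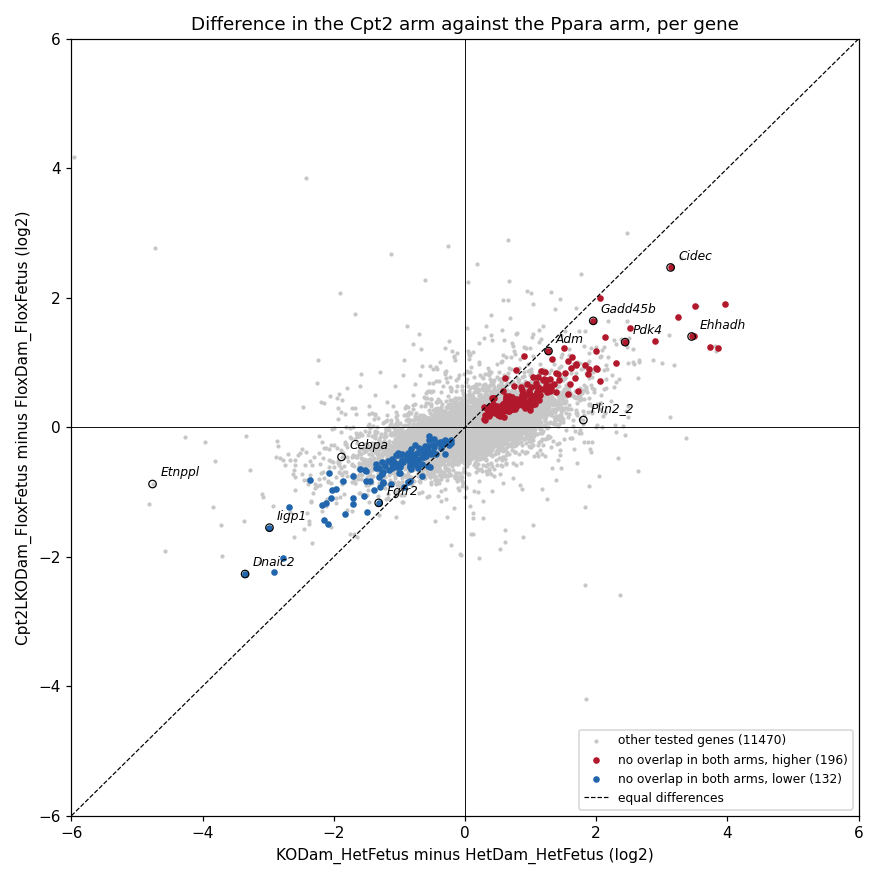
Log2 difference of Cpt2LKODam_FloxFetus minus FloxDam_FloxFetus (vertical) against KODam_HetFetus minus HetDam_HetFetus (horizontal) for the 11798 genes with both values; red and blue points are the 196 and 132 genes whose libraries did not overlap in both arms, and the dashed line marks equal differences. Most coloured points lie between the horizontal axis and the dashed line, since 315 of the 328 differed more in the Ppara arm, while Cidec, Adm and Fgfr2 lie near the line.

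**Figure D2:**
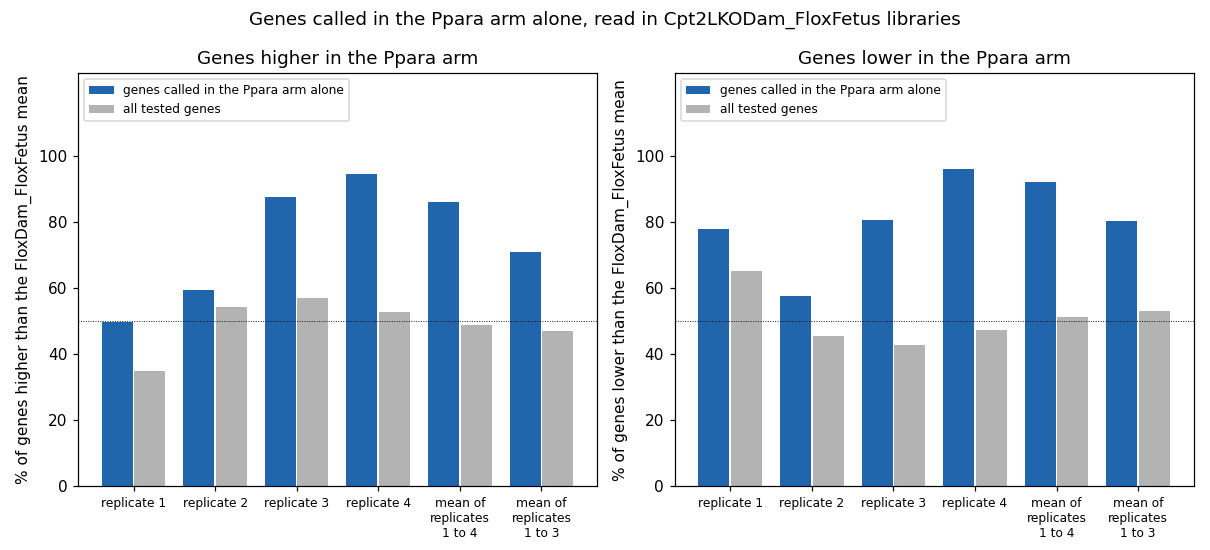
Percentage of genes above (left panel) or below (right panel) the FloxDam_FloxFetus mean in each Cpt2LKODam_FloxFetus library and in their means, for the 2774 rises and 1473 falls called from the Ppara arm alone (blue bars) and for all tested genes (grey bars). The share of rises is 94.6% in replicate 4, where 52.8% of all genes were higher, and 49.7% in replicate 1, where 34.9% were.

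Ehhadh, Pdk4 and Angptl4, genes that PPARA is known to switch on, rose without overlap in both arms. Ehhadh, the bifunctional enzyme of peroxisomal beta-oxidation, had log2 values of 7.00, 7.01, 7.04 and 7.71 in KODam_HetFetus against 3.93, 3.63, 3.89 and 3.50 in HetDam_HetFetus. Ehhadh in the Cpt2 arm stood at 5.47, 4.84, 5.64 and 5.87 in Cpt2LKODam_FloxFetus against 4.21, 3.17, 4.23 and 4.60 in FloxDam_FloxFetus. Neither arm overlapped, and the separation was wider in livers from knockout dams. The pooled rise was 2.43 with a standard error of 0.31 (adjusted p = 0.00113, limma), made of 3.45 in the Ppara arm and 1.40 in the Cpt2 arm. The arms differed by 2.05 at an unadjusted p of 6.09e-05, which did not pass adjustment with all libraries (adjusted p = 0.124, and 0.0173 without Cpt2LKODam_FloxFetus replicate 4).

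Pdk4 encodes the kinase that shuts off pyruvate dehydrogenase and so spares glucose during fasting. Its values were 6.95, 6.84, 5.79 and 6.98 in KODam_HetFetus against 3.64, 4.17, 5.07 and 3.91 in HetDam_HetFetus, and 5.69, 4.04, 3.93 and 5.68 in Cpt2LKODam_FloxFetus against 3.53, 3.31, 3.82 and 3.41 in FloxDam_FloxFetus. Replicates 1 and 4 of Cpt2LKODam_FloxFetus stood well above their controls and replicates 2 and 3 just above them. The pooled rise was 1.88 with a standard error of 0.31 (adjusted p = 0.00164, limma). Angptl4, the secreted inhibitor of lipoprotein lipase, had 7.16, 6.98, 7.15 and 7.19 in KODam_HetFetus against 5.63, 5.74, 5.87 and 4.80 in HetDam_HetFetus, and 6.08, 5.66, 6.01 and 6.63 in Cpt2LKODam_FloxFetus against 5.00, 4.83, 5.41 and 5.45 in FloxDam_FloxFetus. It separated in both arms and rose by 1.27 with a standard error of 0.18 (adjusted p = 0.00114, limma).

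**Figure D3:**
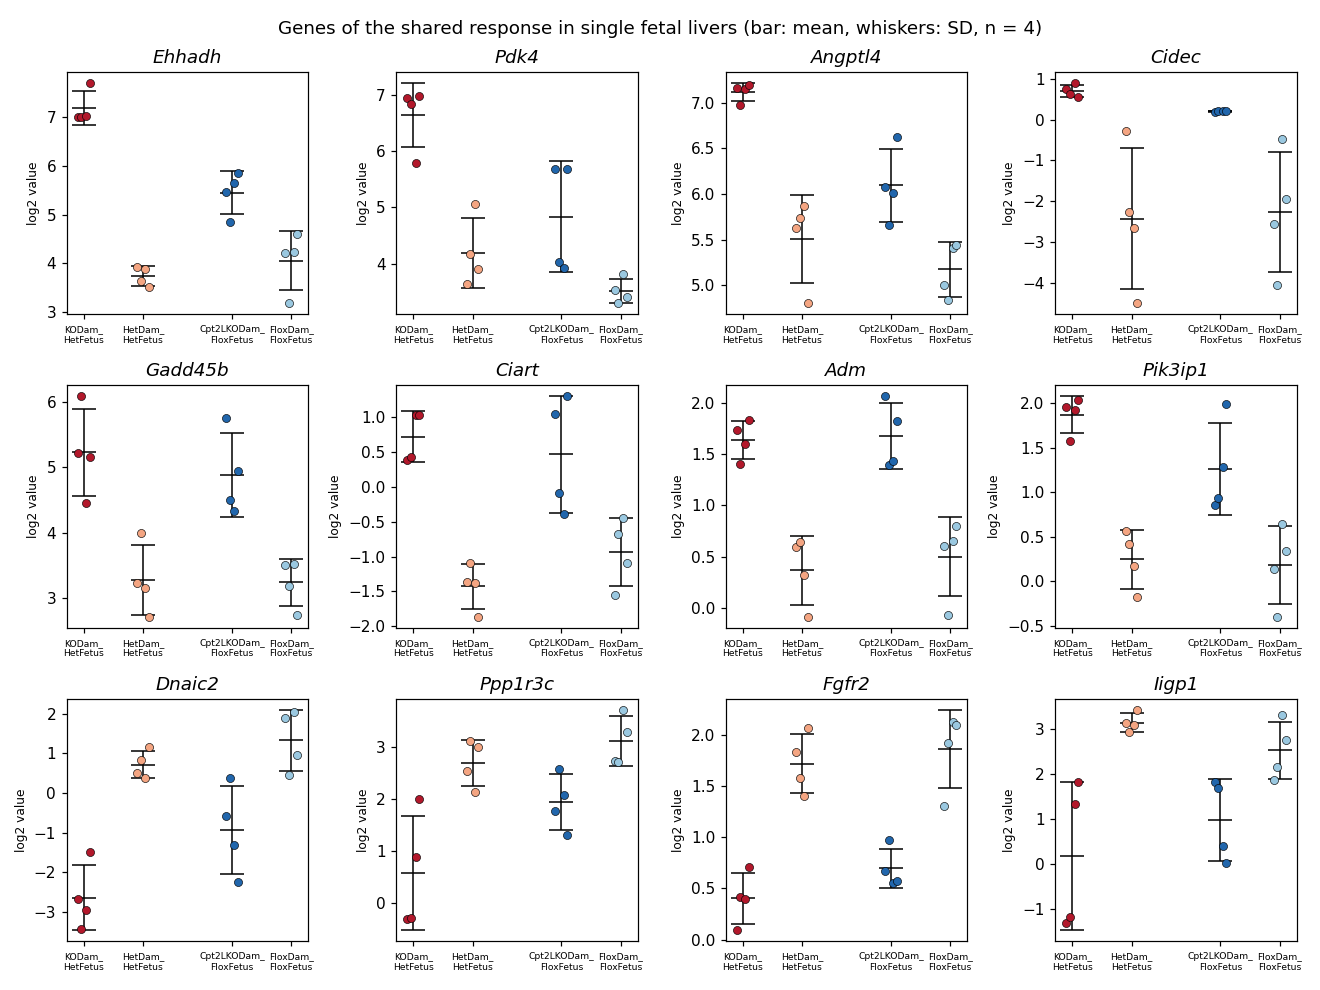
Log2 values of 12 genes in single fetal livers (points, replicates 1 to 4 from left), with the mean and SD of each group of 4; red groups are the Ppara arm and blue groups the Cpt2 arm, each with the livers from defect dams (dark) left of their controls (light). In these 12 genes the defect livers lay all above or all below their controls in both arms, with Ehhadh at 7.00 to 7.71 in KODam_HetFetus and 4.84 to 5.87 in Cpt2LKODam_FloxFetus.

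Of 61 tested canonical PPARA targets, 18 rose and 2 fell, and 8 of the 18 showed no overlap in both arms. Without the 3 libraries named above 14 rose and 0 fell. The median of the list was 0.21 for the pooled effect, 0.27 in the Ppara arm and 0.20 in the Cpt2 arm, where 11 members were higher and 0 lower at an unadjusted p under 0.05. The thioesterase genes Acot1 and Acot2, neighbours with similar sequences whose reads may be divided between them, rose by 1.39 and 2.00. Txnip, which encodes a protein that restrains glucose uptake, rose by 1.52, with 8.46 to 9.66 in KODam_HetFetus against 6.45 to 7.48 in HetDam_HetFetus. Txnip in the Cpt2 arm had 6.71 to 8.07 in Cpt2LKODam_FloxFetus against 5.83 to 6.74 in FloxDam_FloxFetus, where the lowest defect liver lay just under the highest control. Slc25a20, the carnitine-acylcarnitine carrier, rose by 0.49 and Acadl, the long-chain acyl-CoA dehydrogenase, by 0.42. Averaged over the 58 members with all values, the list stood 0.25, 0.36, 0.60 and 0.87 above the HetDam_HetFetus mean in KODam_HetFetus and 0.20, 0.27, 0.43 and 0.27 above the FloxDam_FloxFetus mean in Cpt2LKODam_FloxFetus. Single controls deviated by up to 0.16 upward and 0.26 downward in HetDam_HetFetus and by 0.20 upward and 0.32 downward in FloxDam_FloxFetus. The Cpt2LKODam_FloxFetus livers thus stood at or above the highest of their controls, with replicate 1 beside FloxDam_FloxFetus replicates 3 and 4.

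Several other PPARA targets did not pass the test. Cpt1a, the gatekeeper of mitochondrial fatty acid entry, had 4.42, 4.39, 5.34 and 5.66 in KODam_HetFetus against 4.79, 4.62, 4.87 and 3.76 in HetDam_HetFetus, and 4.20, 4.39, 5.08 and 4.77 in Cpt2LKODam_FloxFetus against 3.26, 3.03, 4.85 and 4.95 in FloxDam_FloxFetus. The groups overlapped in both arms, and the pooled difference was 0.52 with a standard error of 0.29 (adjusted p = 0.183, limma). Cyp4a10 differed by -0.82 (adjusted p = 0.29), Cyp4a14 by 0.60 (adjusted p = 0.435) and Vnn1 by -0.11 (adjusted p = 0.718). Fgf21, the fasting hormone, stayed below the minimum for testing. Acadm, the medium-chain acyl-CoA dehydrogenase, differed by -0.36 at an adjusted p of 0.0491 and was called in 13 of 34 alternative settings. Of 27 tested genes of mitochondrial fatty acid oxidation, 3 rose and 4 fell, with a median of -0.03. Without the 3 libraries 3 rose and 0 fell, and the median turned to 0.07. Of 9 ketone body genes 1 rose and 2 fell, with a median of -0.08, and without the 3 libraries 0 were called and the median turned to 0.12.

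Peroxisomes, the organelles that shorten very long fatty acids, gave a further group that was noticed after the values were seen. Of 16 tested peroxins, the proteins that build peroxisomes, 6 rose and 2 fell, and without the 3 libraries 7 rose and 2 fell. Pex16, which starts the peroxisomal membrane, had 4.46, 4.61, 4.78 and 4.85 in KODam_HetFetus against 3.67, 3.63, 3.21 and 3.46 in HetDam_HetFetus, and 4.82, 4.22, 4.36 and 4.96 in Cpt2LKODam_FloxFetus against 3.76, 3.82, 4.00 and 3.86 in FloxDam_FloxFetus. Pex16 separated in both arms and rose by 0.96 with a standard error of 0.12 (adjusted p = 0.00113, limma). Its partners in membrane assembly, Pex19 and Pex3, rose by 0.53 and 0.72, and the peroxisome division factor Pex11a by 1.01. Pex14, a docking protein of matrix import, rose by 0.59. The ATPase Pex6 and its membrane anchor Pex26 fell by 0.96 and 1.10, so that the group did not move as 1. Of 31 tested peroxisomal and microsomal oxidation genes 4 rose and 6 fell, and without the 3 libraries 2 rose and 2 fell, the falls of the full fit including Acox2, the bile acid side-chain oxidase, which fell by 1.07.

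Lipid droplet genes moved in both directions. Cidec encodes a protein that fuses droplets into larger ones, and its values were 0.74, 0.63, 0.90 and 0.55 in KODam_HetFetus against -0.27, -2.27, -2.66 and -4.51 in HetDam_HetFetus. In the Cpt2 arm Cidec had 0.18, 0.21, 0.22 and 0.21 in Cpt2LKODam_FloxFetus against -2.56, -4.06, -0.49 and -1.95 in FloxDam_FloxFetus. All 8 defect livers lay within a narrow band and all 8 controls lower and widely spread, at levels where a log2 value is imprecise. Among the fitted libraries only the defect livers reached the log2 value of 0 that testing required, so the filter favoured a rise in Cidec. The pooled rise was 2.80 with a standard error of 0.51 (adjusted p = 0.00207, limma). Over the alternative settings it ran from 0.33 to 3.11.

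Pnpla2, the triglyceride lipase that begins droplet breakdown, was of similar size in both arms. It had 4.47, 4.15, 4.67 and 4.77 in KODam_HetFetus against 3.77, 3.86, 3.61 and 3.21 in HetDam_HetFetus, and 4.47, 3.93, 4.22 and 4.86 in Cpt2LKODam_FloxFetus against 2.87, 3.06, 3.69 and 3.49 in FloxDam_FloxFetus. The rise was 1.00 with a standard error of 0.15 (adjusted p = 0.0013, limma), 0.90 in the Ppara arm and 1.10 in the Cpt2 arm. The droplet coat gene Plin2 (entry Plin2_2) had 7.39, 7.73, 6.27 and 6.66 in KODam_HetFetus against 5.06 to 5.32 in HetDam_HetFetus, but 5.20 to 5.99 in Cpt2LKODam_FloxFetus against 5.45 to 5.62 in FloxDam_FloxFetus. Its pooled rise of 0.96 (adjusted p = 0.0133) was 1.80 in the Ppara arm and 0.11 in the Cpt2 arm, and the arms differed at an unadjusted p of 0.00014 that did not pass adjustment with all libraries (adjusted p = 0.124, and 0.0197 without Cpt2LKODam_FloxFetus replicate 4). The pooled call was lost without the 3 libraries. The other coat gene Plin3 fell by 0.61, and Dgat2, which makes triglyceride, fell by 0.65. Of 17 tested droplet genes 4 rose and 4 fell (23.5% each, against 18.0% and 12.1% of all tested genes). The list median of 0.01 changed sign in 13 of 34 settings. Without the 3 libraries 2 of the genes rose and 3 fell.

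Genes of the response to glucocorticoids, the stress steroids that also mature the fetal liver, were the list with the highest pooled median. Of 25 tested members 13 rose and 4 fell, with medians of 0.69 for the pooled effect, 0.66 in the Ppara arm and 0.49 in the Cpt2 arm. In the Cpt2 arm 11 members were higher and 0 lower at an unadjusted p under 0.05, where 5.56% and 6.14% of all genes were. Without the 3 libraries 6 rose and 0 fell. Several members belong to other lists too, among them Angptl4, Pdk4 and Per1, and the direct receptor target Fkbp5 had a difference of 0.06 (adjusted p = 0.829). Tsc22d3, another direct target, had a difference of 0.40 (adjusted p = 0.0397) and was called in 19 of 34 settings.

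Gadd45b, a stress-induced gene of growth arrest and DNA demethylation, was of similar size in both arms. It had 5.22, 6.09, 4.45 and 5.15 in KODam_HetFetus against 3.23, 4.00, 3.16 and 2.71 in HetDam_HetFetus, and 5.76, 4.50, 4.33 and 4.94 in Cpt2LKODam_FloxFetus against 3.51, 3.18, 3.51 and 2.75 in FloxDam_FloxFetus. Both arms separated, and the rise of 1.80 with a standard error of 0.24 (adjusted p = 0.00114, limma) held 1.95 in the Ppara arm and 1.64 in the Cpt2 arm. Sgk1, a serum and glucocorticoid-regulated kinase, rose by 1.29, with 3.67 to 4.00 in KODam_HetFetus against 1.72 to 2.09 in HetDam_HetFetus. Sgk1 in the Cpt2 arm stood at 2.16 to 3.47 in Cpt2LKODam_FloxFetus against 1.82 to 2.32 in FloxDam_FloxFetus, and the arms differed at an unadjusted p of 0.000548. Fkbp4, which encodes a cochaperone that carries the ligand-bound receptor, fell by 0.57 with a standard error of 0.08 (adjusted p = 0.00114, limma). Its fall was -0.53 in the Ppara arm and -0.62 in the Cpt2 arm, and no library overlapped: 4.71 to 4.96 in KODam_HetFetus against 5.13 to 5.46 in HetDam_HetFetus, and 4.73 to 5.19 in Cpt2LKODam_FloxFetus against 5.45 to 5.67 in FloxDam_FloxFetus.

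Genes that FOXO factors turn on when insulin is low also rose more often than they fell. Of 23 tested members 9 rose and 1 fell, with medians of 0.39 pooled, 0.60 in the Ppara arm and 0.26 in the Cpt2 arm, and without the 3 libraries 4 rose and 0 fell. Cdkn1a, an inhibitor of the cell cycle, rose by 1.04, Ddit4, an inhibitor of mTORC1 signalling, by 0.69, and Igfbp1, a secreted binder of insulin-like growth factors, by 0.60. Igfbp1 had 11.01 to 11.50 in KODam_HetFetus against 10.22 to 10.92 in HetDam_HetFetus, and 9.39 to 10.58 in Cpt2LKODam_FloxFetus against 9.32 to 9.72 in FloxDam_FloxFetus, where the groups overlapped. The insulin receptor gene Insr was the member that fell, by 0.63. Pik3ip1, an inhibitor of PI3-kinase signalling outside the list, also rose. It had 1.96, 1.57, 1.92 and 2.03 in KODam_HetFetus against 0.56, 0.42, 0.17 and -0.18 in HetDam_HetFetus, and 0.85, 0.93, 1.28 and 1.99 in Cpt2LKODam_FloxFetus against 0.13, -0.40, 0.64 and 0.34 in FloxDam_FloxFetus. Neither arm overlapped, and the rise was 1.36 with a standard error of 0.19 (adjusted p = 0.00114, limma).

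Among 19 tested clock genes 6 rose and 1 fell, and without the 3 libraries 3 rose and 0 fell. Ciart, a repressor of the CLOCK and BMAL1 activators, had 0.39, 0.42, 1.03 and 1.02 in KODam_HetFetus against -1.37, -1.10, -1.37 and -1.86 in HetDam_HetFetus, and 1.04, -0.10, -0.40 and 1.29 in Cpt2LKODam_FloxFetus against -1.55, -0.68, -0.45 and -1.09 in FloxDam_FloxFetus. Both arms separated, although Cpt2LKODam_FloxFetus replicate 3 stood only just above FloxDam_FloxFetus replicate 3, and the rise was 1.77 with a standard error of 0.27 (adjusted p = 0.0014, limma). All controls lay below the log2 value of 0 that testing required. Among the fitted libraries Ciart thus met the filter only through defect livers. Per1, a period gene that hormones also induce, rose by 1.07, the repressor Cry2 by 0.97, and the nuclear receptors Nr1d2 and Nr1d1 by 0.77 and 1.53. Per2, the partner of Per1, fell by 0.65. The labels used here give no hour of collection, so hour of day and maternal defect cannot be told apart for these genes.

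The E-box CACGTG, the DNA element that CLOCK and BMAL1 bind, was searched on both strands, which read alike, in the 250 bases before the start of each gene. These promoters are shown because the genes rose together and hold the element, printed in capitals. The sequences are RefSeq promoters of GRCm38.p6, 5′ to 3′ on the strand of the gene: Ciart at chr3:95882229-95882478 on the minus strand, Per1 at chr11:69098699-69098948 on the plus strand (1 of 2 promoters listed), Arrdc4 at chr7:68749239-68749488 on the minus strand and Gadd45b at chr10:80929841-80930090 on the plus strand.
Ciart: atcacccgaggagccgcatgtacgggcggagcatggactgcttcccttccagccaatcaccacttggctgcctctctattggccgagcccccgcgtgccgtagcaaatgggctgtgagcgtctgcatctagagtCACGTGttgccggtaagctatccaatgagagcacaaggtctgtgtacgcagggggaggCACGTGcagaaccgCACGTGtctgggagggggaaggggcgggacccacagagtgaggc
Per1: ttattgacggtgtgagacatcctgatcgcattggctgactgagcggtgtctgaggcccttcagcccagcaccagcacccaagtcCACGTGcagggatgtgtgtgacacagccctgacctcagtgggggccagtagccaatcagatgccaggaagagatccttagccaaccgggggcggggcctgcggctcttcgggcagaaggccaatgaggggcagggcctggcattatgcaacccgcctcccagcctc
Arrdc4: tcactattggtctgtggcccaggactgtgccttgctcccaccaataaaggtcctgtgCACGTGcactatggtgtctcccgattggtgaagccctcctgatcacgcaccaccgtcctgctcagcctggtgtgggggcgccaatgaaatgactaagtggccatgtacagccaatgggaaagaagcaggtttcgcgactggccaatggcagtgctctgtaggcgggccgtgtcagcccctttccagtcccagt
Gadd45b: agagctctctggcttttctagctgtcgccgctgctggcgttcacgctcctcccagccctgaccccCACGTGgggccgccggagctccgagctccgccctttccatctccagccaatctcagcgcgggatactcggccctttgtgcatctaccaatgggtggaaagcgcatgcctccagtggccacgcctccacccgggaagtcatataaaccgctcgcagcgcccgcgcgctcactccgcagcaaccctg
Ciart held 3 copies, starting 116, 58 and 44 bases before the gene's start, and the other genes shown held 1 each, at 166 bases in Per1, 193 in Arrdc4 and 185 in Gadd45b. Arrdc4, an arrestin-domain relative of Txnip, rose by 1.01, with 2.14 to 3.14 in KODam_HetFetus against 0.78 to 1.34 in HetDam_HetFetus and 1.26 to 2.16 in Cpt2LKODam_FloxFetus against 0.90 to 1.04 in FloxDam_FloxFetus. Cry2 and Nr1d2 hold no CACGTG in this window. The element was no more frequent in the shared rises: 11 of 147 genes (7.48%) that were higher without overlap in both arms and had a promoter in the table held it, 11 of 105 (10.5%) that were lower, and 755 of 8711 (8.67%) of all tested genes.

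**Figure D4:**
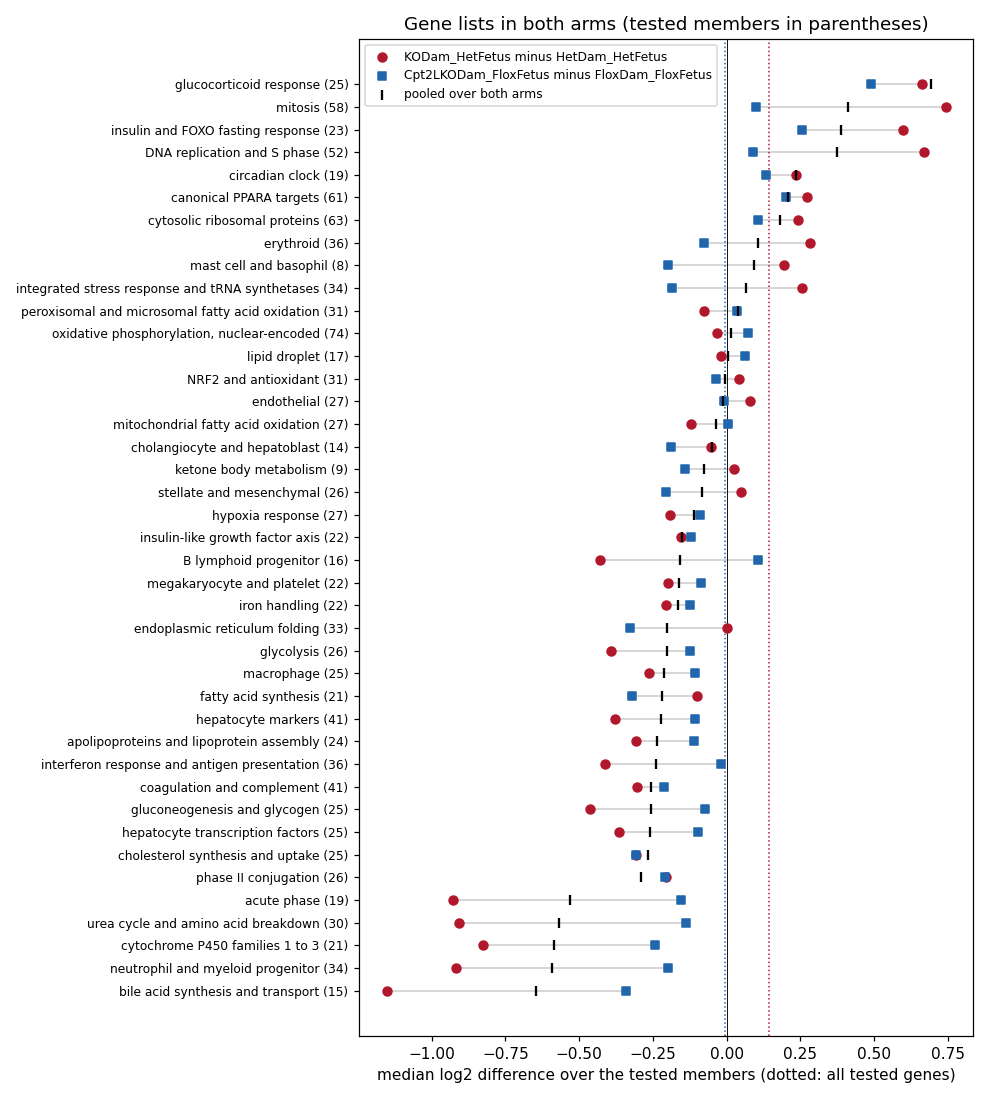
Median log2 difference over the tested members of each gene list in the Ppara arm (red circles), in the Cpt2 arm (blue squares) and pooled (black ticks), with dotted lines at the medians of all tested genes, 0.14 and -0.01. The glucocorticoid list lies at 0.66 and 0.49 and the canonical PPARA targets at 0.27 and 0.20 in the Ppara and Cpt2 arms, whereas mitosis lies at 0.74 and 0.10.

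Genes of glycogen storage and breakdown were among the falls. Of 25 tested genes of gluconeogenesis and glycogen 9 fell and 1 rose, with medians of -0.26 pooled, -0.46 in the Ppara arm and -0.07 in the Cpt2 arm, and without the 3 libraries 4 fell and 1 rose. Ppp1r3c, a glycogen-targeting subunit of protein phosphatase 1, had -0.31, -0.28, 0.89 and 1.99 in KODam_HetFetus against 2.54, 3.12, 2.14 and 2.99 in HetDam_HetFetus, and 1.78, 2.58, 2.09 and 1.30 in Cpt2LKODam_FloxFetus against 2.74, 2.70, 3.71 and 3.29 in FloxDam_FloxFetus. It separated in both arms, narrowly in the Cpt2 arm, and fell by 1.65 (adjusted p = 0.00251, limma).

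The liver subunit Ppp1r3b fell by 2.07, with 0.81 to 1.75 in KODam_HetFetus against 3.61 to 4.67 in HetDam_HetFetus. In Cpt2LKODam_FloxFetus Ppp1r3b had 3.60, 3.69, 2.57 and 0.99 against 3.49, 3.60, 4.63 and 3.96 in FloxDam_FloxFetus, so that replicates 1 and 2 lay among the controls and replicate 4 far below. Pygl, the liver glycogen phosphorylase, fell by 0.56, the branching enzyme Gbe1 by 0.65 and the glucose transporter Slc2a2 by 0.67. Ppp1r3g, another glycogen-targeting subunit, rose by 0.95. Pck1, the gluconeogenic enzyme that switches on around birth, had 5.28, 5.55, 4.53 and 5.97 in KODam_HetFetus against 4.74, 4.77, 5.34 and 0.96 in HetDam_HetFetus, and 4.31, 4.81, 6.05 and 5.26 in Cpt2LKODam_FloxFetus against 2.43, 1.23, 4.56 and 4.91 in FloxDam_FloxFetus. Low values in 3 control livers set its difference of 1.60, which did not pass (adjusted p = 0.0509, limma).

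Sterol synthesis genes fell more often than they rose, with the same median in both arms. Of 25 tested genes of cholesterol synthesis and uptake 9 fell and 1 rose, with medians of -0.27 pooled, -0.31 in the Ppara arm and -0.31 in the Cpt2 arm, and without the 3 libraries 2 fell and 0 rose. Sqle, the squalene epoxidase, fell by 0.72, with 3.79 to 4.40 in KODam_HetFetus against 4.67 to 5.16 in HetDam_HetFetus. In the Cpt2 arm Sqle had 3.69 to 4.63 in Cpt2LKODam_FloxFetus against 4.53 to 5.12 in FloxDam_FloxFetus. Cyp51, the lanosterol demethylase, fell by 0.62, which held -0.53 in the Ppara arm and -0.71 in the Cpt2 arm.

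Of 21 tested fatty acid synthesis genes 6 fell and 3 rose, with a median of -0.22, and without the 3 libraries 1 fell and 2 rose. Scd2, the desaturase of fetal tissues that makes monounsaturated fatty acids, had 3.95, 4.50, 3.75 and 4.33 in KODam_HetFetus against 5.14, 4.46, 5.04 and 5.69 in HetDam_HetFetus, and 4.14, 4.14, 4.24 and 3.78 in Cpt2LKODam_FloxFetus against 5.51, 4.46, 5.46 and 5.49 in FloxDam_FloxFetus. The Cpt2 arm separated and the Ppara arm overlapped by 1 library, HetDam_HetFetus replicate 2. The fall was -1.05 with a standard error of 0.18 (adjusted p = 0.00174, limma), -0.95 in the Ppara arm and -1.16 in the Cpt2 arm. The elongase gene Elovl6 fell by 0.99, whereas Elovl5, which elongates polyunsaturated fatty acids, rose by 0.83. Angptl8, a feeding-induced regulator of lipoprotein lipase in the adult liver, fell by 1.70, with -1.75 in the Ppara arm and -1.65 in the Cpt2 arm.

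Genes of protein folding in the endoplasmic reticulum fell more often than they rose. Of 33 tested members 9 fell and 1 rose in the pooled fit, with medians of -0.20 pooled, 0.00 in the Ppara arm and -0.33 in the Cpt2 arm, where 11 members were lower and 0 higher at an unadjusted p under 0.05. In the Ppara arm 6 were called lower and 4 higher, and 7 of the 33 differed between the arms at an unadjusted p under 0.05, where 19.6% of all genes did. Without the 3 libraries 3 fell and 0 rose. The list stood 0.35, 0.20, 0.40 and 0.34 below the FloxDam_FloxFetus mean in Cpt2LKODam_FloxFetus, while single FloxDam_FloxFetus livers ranged from -0.21 to 0.20. Replicates 1, 3 and 4 lay below all controls and replicate 2 beside the lowest of them. Pdia4, a protein disulphide isomerase, had 4.60, 4.66, 4.32 and 4.60 in KODam_HetFetus against 5.41, 5.04, 5.47 and 5.66 in HetDam_HetFetus, and 4.55, 4.81, 4.57 and 4.25 in Cpt2LKODam_FloxFetus against 4.74, 5.26, 5.90 and 5.43 in FloxDam_FloxFetus. It fell by 0.82 with a standard error of 0.14 (adjusted p = 0.00168, limma), with an overlap only between Cpt2LKODam_FloxFetus replicate 2 and FloxDam_FloxFetus replicate 1. Xbp1, the transcription factor of the unfolded protein response, fell by 0.80, Sdf2l1, a chaperone component, by 0.67, and Hyou1, a folding chaperone, by 0.65.

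The integrated stress response, which amino acid shortage sets off, did not rise as a list. Of its 34 tested members 3 rose and 6 fell, and without the 3 libraries 0 rose and 3 fell, with medians in the full fit of 0.26 in the Ppara arm and -0.19 in the Cpt2 arm. Mthfd2, a mitochondrial folate enzyme that this response induces, had 3.15, 3.31, 3.45 and 2.94 in KODam_HetFetus against 4.31, 3.68, 3.56 and 3.54 in HetDam_HetFetus, and 3.87, 3.81, 4.32 and 3.86 in Cpt2LKODam_FloxFetus against 4.89, 4.39, 4.49 and 4.50 in FloxDam_FloxFetus. Both arms separated by small margins, and Mthfd2 fell by 0.58 with a standard error of 0.13 (adjusted p = 0.00415, limma), -0.56 in the Ppara arm and -0.60 in the Cpt2 arm.

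**Figure D5:**
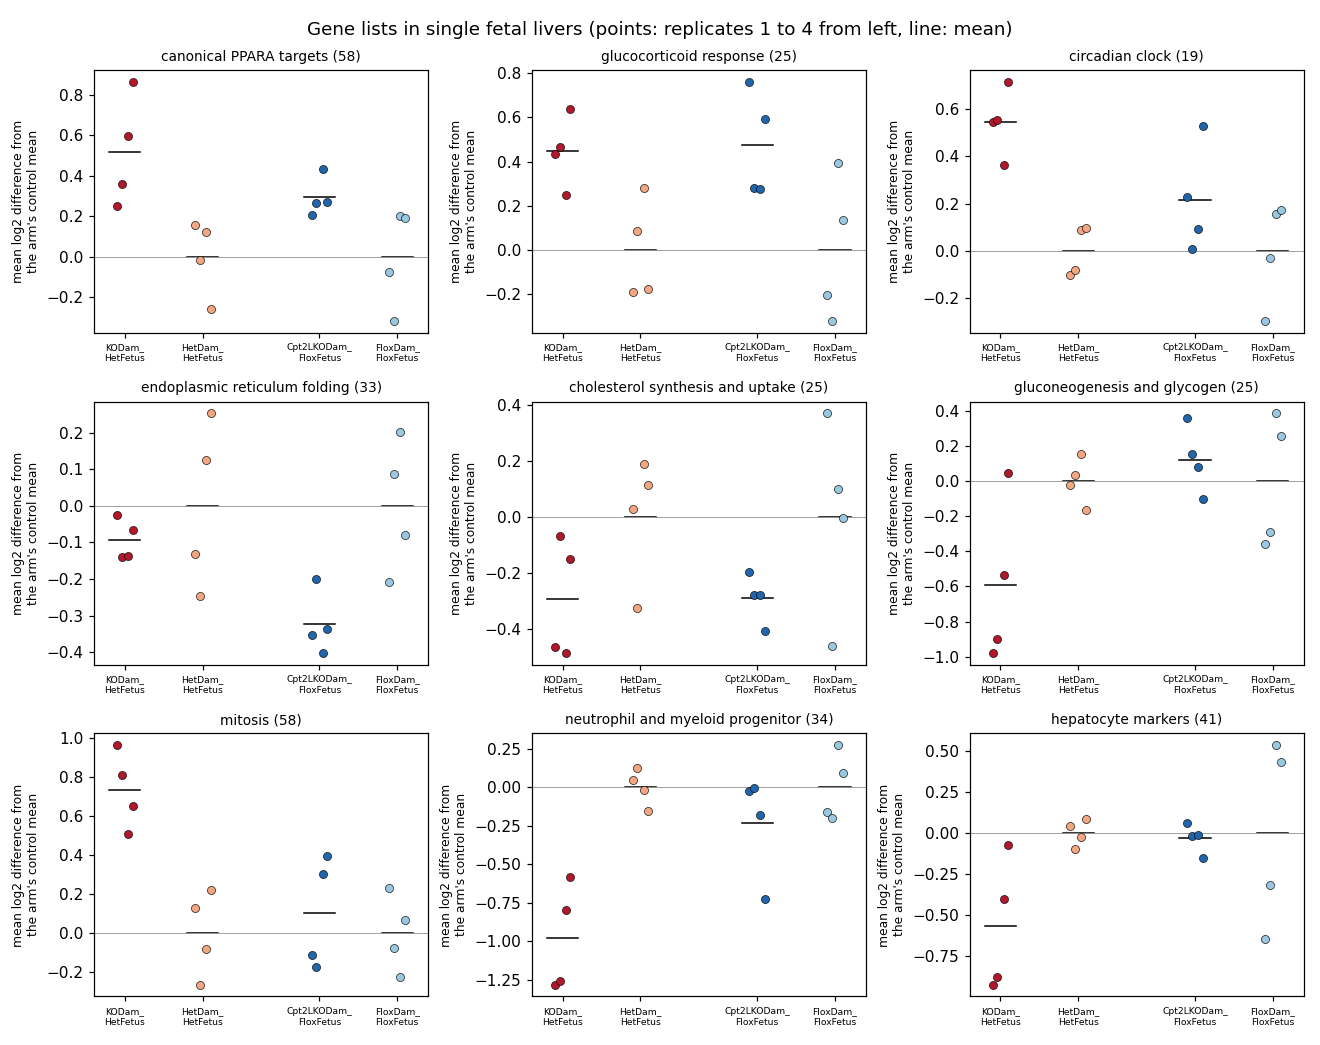
Mean log2 difference of 9 gene lists from the mean of the arm's control group in single fetal livers (points, replicates 1 to 4 from left; line, group mean; members with all values in parentheses), with the livers from defect dams left of their controls. The PPARA and glucocorticoid lists lie above 0 in all 8 livers from defect dams, while mitosis is at 0.51 to 0.96 in KODam_HetFetus and at -0.17 to 0.40 in Cpt2LKODam_FloxFetus.

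Part of the genes of the differentiated hepatocyte fell. Of 25 tested hepatocyte transcription factors 7 fell and 2 rose, with medians of -0.36 in the Ppara arm and -0.10 in the Cpt2 arm. Without both KODam_HetFetus littermates the Ppara-arm median was 0.01, where that of all tested genes was 0.22 (0.14 in the full fit). Without the 3 libraries 4 fell and 0 rose. Cebpa, a factor that drives hepatocyte maturation, had 3.69, 3.58, 4.41 and 4.47 in KODam_HetFetus against 5.53, 6.05, 6.00 and 6.10 in HetDam_HetFetus, and 5.90, 5.44, 5.06 and 4.74 in Cpt2LKODam_FloxFetus against 5.37, 5.76, 6.13 and 5.71 in FloxDam_FloxFetus. The Cpt2 arm overlapped, and the pooled fall of -1.17 (adjusted p = 0.00351, limma) held -1.88 in the Ppara arm and -0.46 in the Cpt2 arm, which differed at an unadjusted p of 0.00104. Foxa3, a pioneer factor of liver genes, fell by 1.08 and Nr1h3, the oxysterol receptor LXR alpha, by 1.16. In both, Cpt2LKODam_FloxFetus replicate 4 was the lowest of its group, at 2.78 for Foxa3 and 1.84 for Nr1h3.

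Of 41 tested hepatocyte markers 6 fell (14.6%, near the 12.1% of all tested genes) and 0 rose, with a median of -0.22. Without the 3 libraries 1 of these markers fell. Their summed level, after undoing the logarithm, was 90374 to 125910 in KODam_HetFetus against 101400 to 164540 in HetDam_HetFetus, and 97981 to 104850 in Cpt2LKODam_FloxFetus against 85111 to 137260 in FloxDam_FloxFetus. The sums overlapped in both arms, and in such bulk tissue fewer cells of a type and less RNA per cell cannot be told apart. The FloxDam_FloxFetus livers themselves were split: over this list replicates 1 and 2 stood 0.65 and 0.32 below their group's mean and the presumed littermates 3 and 4 stood 0.53 and 0.43 above it. Alb differed by -0.29 (adjusted p = 0.224) and Afp, the fetal alpha-fetoprotein gene, by 0.18 (adjusted p = 0.421). Hgd, of tyrosine breakdown, fell by 0.90 and the urea cycle enzyme gene Otc by 0.76. Of 30 tested genes of the urea cycle and amino acid breakdown 13 fell and 1 rose, with medians of -0.57 pooled, -0.91 in the Ppara arm and -0.14 in the Cpt2 arm, and without the 3 libraries 2 fell.

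Bile acid genes fell in part, and 0 of them rose. Of 15 tested members 7 fell, with medians of -1.15 in the Ppara arm and -0.34 in the Cpt2 arm, and 4 of the 15 differed between the arms at an unadjusted p under 0.05. In the Cpt2 arm 0 members were higher or lower at an unadjusted p under 0.05. Without Cpt2LKODam_FloxFetus replicate 4 the Cpt2-arm median was -0.07 (-0.02 over all tested genes). Without both KODam_HetFetus littermates the Ppara-arm median was -0.61 (0.22 over all tested genes), and without the 3 libraries 0 were called. Slc10a1, the bile acid uptake transporter, had 2.32, 2.70, 4.43 and 5.03 in KODam_HetFetus against 6.24 to 6.40 in HetDam_HetFetus, and 5.89, 6.01, 5.70 and 4.06 in Cpt2LKODam_FloxFetus against 4.77, 5.44, 6.69 and 6.39 in FloxDam_FloxFetus. Its pooled fall of -1.55 (adjusted p = 0.0218, limma) held -2.70 in the Ppara arm and -0.41 in the Cpt2 arm. The call was lost with litter as a random block (adjusted p = 0.0533), with littermates averaged (adjusted p = 0.0662) and without both KODam_HetFetus littermates, where the difference was -0.88 (adjusted p = 0.0897). Cyp7a1, which commits cholesterol to bile acids, differed by -2.10 but did not pass (adjusted p = 0.0654). Of 41 tested coagulation and complement genes 9 fell and 0 rose, and without the 3 libraries 2 fell. Klkb1, the plasma prekallikrein gene, had 2.74, 3.05, 3.29 and 3.69 in KODam_HetFetus against 4.46, 4.28, 4.31 and 4.74 in HetDam_HetFetus, and 3.43, 3.56, 3.82 and 3.43 in Cpt2LKODam_FloxFetus against 3.87, 3.92, 4.64 and 4.59 in FloxDam_FloxFetus. It separated in both arms and fell by 0.97 with a standard error of 0.16 (adjusted p = 0.00163, limma), and its neighbour F11, coagulation factor XI, fell by 0.99.

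Hamp, which encodes hepcidin, the hormone that blocks iron export, rose. It had 8.16, 8.55, 6.45 and 5.71 in KODam_HetFetus against 5.22, 6.60, 4.20 and 4.11 in HetDam_HetFetus. In the Cpt2 arm Hamp had 6.33, 4.64, 5.48 and 6.10 in Cpt2LKODam_FloxFetus against 3.39, 4.34, 3.64 and 4.60 in FloxDam_FloxFetus. The Cpt2 arm separated narrowly and the Ppara arm overlapped, and the rise was 1.91 with a standard error of 0.43 (adjusted p = 0.00503, limma), a call that was lost without the 3 libraries. Saa4, a constitutive serum amyloid gene, separated in both arms and fell by 1.09.

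Adm and Fgfr2, genes of vessel tone and of growth, changed with similar values in each arm. Adm encodes adrenomedullin, a vasodilator peptide, and had 1.73, 1.40, 1.60 and 1.83 in KODam_HetFetus against 0.59, 0.64, 0.32 and -0.09 in HetDam_HetFetus, and 2.06, 1.39, 1.43 and 1.82 in Cpt2LKODam_FloxFetus against 0.61, -0.07, 0.66 and 0.80 in FloxDam_FloxFetus. It rose by 1.23 with a standard error of 0.15 (adjusted p = 0.00113, limma), 1.27 in the Ppara arm and 1.18 in the Cpt2 arm. Fgfr2, a fibroblast growth factor receptor, was its counterpart among the falls, with 0.09, 0.41, 0.40 and 0.71 in KODam_HetFetus against 1.83, 1.58, 1.40 and 2.06 in HetDam_HetFetus, and 0.67, 0.97, 0.56 and 0.57 in Cpt2LKODam_FloxFetus against 1.30, 1.92, 2.12 and 2.10 in FloxDam_FloxFetus. It fell by 1.24 with a standard error of 0.14 (adjusted p = 0.00113, limma), -1.32 in the Ppara arm and -1.17 in the Cpt2 arm. Both genes separated in both arms.

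Adm is also known as a hypoxia-induced gene, but the hypoxia list as a whole did not rise: of 27 tested members 2 rose and 7 fell, and without the 3 libraries 1 rose and 2 fell. Egln3, a prolyl hydroxylase that hypoxia induces, fell by 1.93, with 0.17 to 1.36 in KODam_HetFetus against 2.59 to 4.53 in HetDam_HetFetus. In Cpt2LKODam_FloxFetus Egln3 had 3.18, 2.91, 1.01 and 0.81 against 3.22, 4.09, 4.04 and 2.52 in FloxDam_FloxFetus. In the insulin-like growth factor axis 4 of 22 tested members fell and 1 rose, and without the 3 libraries 2 fell and 0 rose. Ghr, the growth hormone receptor gene, fell by 0.75 and Grb10, an imprinted adaptor that restrains growth, by 1.02. Igf1 and Igf2, the growth factors themselves, differed by 0.07 (adjusted p = 0.78) and -0.22 (adjusted p = 0.33).

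Cell cycle genes rose in the pooled fit, with higher medians in the Ppara arm. Of 58 tested mitosis genes 30 rose and 0 fell, with medians of 0.41 pooled, 0.74 in the Ppara arm and 0.10 in the Cpt2 arm, and 40 of the 58 differed between the arms at an unadjusted p under 0.05 (19.6% of all genes did). Without both KODam_HetFetus littermates 11 of the 58 did, a setting whose share over all genes is not given here. Of 52 tested DNA replication genes 23 rose and 0 fell, with 0.37, 0.67 and 0.09. In the Cpt2 arm 4 mitosis and 5 replication genes were higher and 0 lower at an unadjusted p under 0.05. Of all tested genes 5.56% were higher and 6.14% lower. Without Cpt2LKODam_FloxFetus replicate 4 the medians in that arm were -0.0002 for mitosis and 0.03 for replication, against -0.02 over all tested genes. Without the 3 libraries 5 mitosis and 4 replication genes rose. Ccne1, the cyclin that starts S phase, rose by 0.90, with 4.57 to 5.00 in KODam_HetFetus against 3.28 to 3.78 in HetDam_HetFetus. Ccne1 in the Cpt2 arm had 3.98 to 4.75 in Cpt2LKODam_FloxFetus against 3.45 to 4.22 in FloxDam_FloxFetus. The mitotic kinase gene Cdk1 rose by 0.66. Erythroid markers, whose cells divide in the fetal liver, summed to 218030 to 234580 in KODam_HetFetus against 172540 to 220060 in HetDam_HetFetus and to 224110 to 237070 in Cpt2LKODam_FloxFetus against 209420 to 236720 in FloxDam_FloxFetus, and 3 of 36 rose and 3 fell, with 0 called without the 3 libraries. The median difference of the erythroid markers was 0.28 in the Ppara arm and -0.08 in the Cpt2 arm. The Ppara arm gave 11 calls higher and 2 lower among them, where 25.0% and 12.8% of all genes were called. In the Cpt2 arm 0 were higher and 7 lower at an unadjusted p under 0.05. The part of the erythroid markers in the cell cycle result was not tested.

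Most genes of the myeloid list fell. The list of neutrophils and their progenitors had 24 falls and 0 rises among 34 tested genes, with medians of -0.59 pooled, -0.92 in the Ppara arm and -0.20 in the Cpt2 arm, and without the 3 libraries 3 fell. Their summed level was 3658 to 6087 in KODam_HetFetus against 6342 to 9524 in HetDam_HetFetus, without overlap, and 4514 to 7777 in Cpt2LKODam_FloxFetus against 6568 to 7853 in FloxDam_FloxFetus, where only replicate 4 lay clearly low over the list, 0.72 below the control mean. Ltf, the lactoferrin gene of neutrophil granules, fell by 0.91 and Ncf1, a subunit of the NADPH oxidase, by 1.05. Of 25 macrophage genes 7 fell and 0 rose, and without the 3 libraries 2 fell. Lyz2, the lysozyme gene of macrophages and neutrophils, had 6.94, 6.92, 7.29 and 7.34 in KODam_HetFetus against 8.69, 8.69, 8.95 and 8.70 in HetDam_HetFetus, and 8.20, 8.49, 8.18 and 7.10 in Cpt2LKODam_FloxFetus against 8.63, 8.39, 8.73 and 8.82 in FloxDam_FloxFetus. It fell by 1.14, -1.64 in the Ppara arm and -0.65 in the Cpt2 arm.

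Of 36 tested members of the interferon and antigen presentation list 8 fell, 0 rose and 28 were not called, with medians of -0.41 in the Ppara arm and -0.02 in the Cpt2 arm. In the fit without the 3 libraries 1 fell and the pooled median was -0.05. The interferon-inducible GTPases, a family noticed after the values were seen, held 5 falls and 0 rises among 10 tested members, with medians of -1.38 in the Ppara arm and -0.72 in the Cpt2 arm, where 9 of 10 were lower. Without both KODam_HetFetus littermates the Ppara-arm median was -0.34 (0.22 over all tested genes), and without the 3 libraries 3 fell. Iigp1 had -1.31, -1.20, 1.34 and 1.83 in KODam_HetFetus against 3.13, 2.94, 3.08 and 3.43 in HetDam_HetFetus, and 1.81, 1.68, 0.39 and 0.01 in Cpt2LKODam_FloxFetus against 1.87, 2.15, 3.31 and 2.75 in FloxDam_FloxFetus. Iigp1 separated in both arms, as did Ifi47 and Igtp, and fell by 2.27, Ifi47 by 1.39 and Igtp by 1.23, a call that Igtp lost without the 3 libraries. Irf1, the interferon regulatory factor that drives several of these genes, separated in both arms as well and fell by 0.81, with 1.17 to 2.15 in KODam_HetFetus against 2.29 to 3.00 in HetDam_HetFetus and 1.84 to 2.39 in Cpt2LKODam_FloxFetus against 2.57 to 2.83 in FloxDam_FloxFetus. Macrophage markers summed to 848 to 1045 in KODam_HetFetus against 1230 to 1407 in HetDam_HetFetus and to 935 to 1177 in Cpt2LKODam_FloxFetus against 1122 to 1315 in FloxDam_FloxFetus, and their part in these falls was not tested.

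Several of the largest or steadiest shared changes lay outside the lists. Dnaic2, a dynein chain of motile cilia, had -2.67, -3.43, -2.94 and -1.49 in KODam_HetFetus against 0.49, 0.82, 0.39 and 1.16 in HetDam_HetFetus, and -0.58, 0.37, -1.30 and -2.23 in Cpt2LKODam_FloxFetus against 1.89, 0.45, 2.04 and 0.95 in FloxDam_FloxFetus. It separated in both arms at low levels and fell by 2.81 with a standard error of 0.39 (adjusted p = 0.00114, limma). All controls of Dnaic2 reached the log2 value of 0 that testing required. Among the defect livers only Cpt2LKODam_FloxFetus replicate 2 did. Fam47e fell by 2.57, the ABC transporter gene Abca8a by 1.96, Slc17a3, a phosphate and urate transporter, by 1.79 and Pbld1 by 1.59, each without overlap in both arms. Fam47e was low, at -5.91 to -2.38 in KODam_HetFetus, so no liver of that group reached the log2 value of 0 that testing required. Over the alternative settings the difference in Fam47e ran from -2.83 to -0.25. Tcea3, a transcription elongation factor, was of equal size in the arms, with -0.93 and -0.92. It had 2.86 to 3.47 in KODam_HetFetus against 3.66 to 4.31 in HetDam_HetFetus, and 2.90 to 3.47 in Cpt2LKODam_FloxFetus against 3.74 to 4.37 in FloxDam_FloxFetus.

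Among the rises outside the lists, Cirbp, the cold-inducible RNA-binding protein, had 5.92, 5.71, 6.20 and 6.29 in KODam_HetFetus against 4.78, 4.67, 3.86 and 3.52 in HetDam_HetFetus, and 5.15, 4.84, 5.43 and 6.26 in Cpt2LKODam_FloxFetus against 4.46, 3.88, 4.81 and 4.71 in FloxDam_FloxFetus. It separated in both arms, narrowly in the Cpt2 arm, and rose by 1.39 with a standard error of 0.24 (adjusted p = 0.00174, limma). Ctgf, a matricellular growth factor gene, rose by 1.58. Robo4, a receptor of endothelial cells that belongs to the endothelial list, rose by 0.96. Of 27 tested endothelial markers 2 rose, Robo4 among them, and 4 fell, and without the 3 libraries 1 rose and 0 fell. Slc25a28, the mitochondrial iron carrier mitoferrin 2, rose by 0.81, and Csnk2a2, a catalytic subunit of casein kinase 2, by 0.72, both without overlap in both arms. Genes of histone cluster 1, noticed after the values were seen, gave 16 rises and 0 falls among 45 tested, with medians of 1.11 in the Ppara arm and 0.76 in the Cpt2 arm. Without both KODam_HetFetus littermates the Ppara-arm median was 0.34 (0.22 over all tested genes), below that of the Cpt2 arm. Without the 3 libraries 5 rose. Most histone genes lack a poly(A) tail and have close copies, so their reads in poly(A) libraries may be divided among members, and their values are uncertain.

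Some called genes had differences of unlike size in the arms. Etnppl, which breaks down phosphoethanolamine, had -2.52, -1.47, -1.02 and -0.06 in KODam_HetFetus against 3.37, 3.75, 3.00 and 3.85 in HetDam_HetFetus, and 3.10, 3.58, 2.56 and 0.40 in Cpt2LKODam_FloxFetus against 2.39, 3.12, 4.21 and 3.42 in FloxDam_FloxFetus. The Ppara arm separated widely, while in the Cpt2 arm only replicate 4 lay below the controls. Etnppl differed by -4.76 in the Ppara arm and -0.88 in the Cpt2 arm (unadjusted p of the difference 0.000278). Keg1 differed by -4.57 and -1.91, Hsd17b6, a hydroxysteroid dehydrogenase gene, by -3.81 and -0.51, and Zmynd10, needed to assemble ciliary dynein, by -3.27 and -0.66 in the Ppara and Cpt2 arms. None of these 4 differences passed adjustment with all libraries. Without Cpt2LKODam_FloxFetus replicate 4 each did, with an adjusted p of 0.0116 for Etnppl, 0.0173 for Keg1, 0.0248 for Hsd17b6 and 0.0197 for Zmynd10 (limma). Leaving it out also shrank the Cpt2-arm difference, from -0.88 to -0.21 in Etnppl, -1.91 to -1.13 in Keg1 and -0.66 to -0.35 in Zmynd10. That of Hsd17b6 went from -0.51 to 0.18. These p-values are therefore no separate support for unequal arms. Etnppl also passed without the 3 libraries (adjusted p = 0.0431), where the other three did not. The pooled calls of Etnppl, Hsd17b6 and Zmynd10 were lost without the 3 libraries, and that of Hsd17b6 also without both KODam_HetFetus littermates.

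Under all 34 alternative settings in which they could be tested, 790 of the 3563 called genes kept their call, 472 of the rises and 318 of the falls, and 266 of the 790 were among the 328 genes without overlap in both arms. Ehhadh, Pdk4, Angptl4, Cidec, Gadd45b, Ciart, Adm, Pik3ip1, Ppp1r3c, Fgfr2 and Iigp1 were called in each setting in which they were tested. Acadl, Cry2, Ddit4, Elovl6, Igfbp1, Otc and Hyou1 lost their call without the 3 libraries, and Hyou1 also with litter as a random block. Where nothing in the labels says more, p-values measure the spread between these fetuses, of which KODam_HetFetus and FloxDam_FloxFetus each hold 3 presumed litters.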

How the data were processed

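RNA of fetal liver was extracted with Trizol and a column and sequenced from stranded poly(A) libraries as single reads of 75 bases, per the labels' protocols. The submitters' processing notes name bcl2fastq 2.17.1.14, Partek 7.0 and the build GRCm38.p6. Aligner and counting rule: not given in the sources used here. The authors deposited 1 table of log2 values, quantile normalized (all libraries share their quantiles) from a quantity that is not named. Blank cells were read as no value. No read counts can be recovered from them, so depth and its precision are unknown.

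The fit used limma 3.58.1 in R 4.3.3 (lmFit and eBayes with a mean-variance trend) on 16 libraries with arm and maternal defect as terms, two-sided, with p-values adjusted over all 11807 tested genes and calls under 0.05. Values of each arm and the difference between arms came from group means of the same libraries. The fitting step was tested on simulated data. A gene named in the text was one of the targeted genes, of a panel, of the 15 largest or 10 smallest-p shared changes, of up to 4 leading members of a list, or of the 5 largest differences between arms in each direction, and other genes were named after their values were seen. The members, lists and panel were chosen with earlier results of these data known. Not all genes that this rule picks are printed. Alternatives covered the block, litter, sex, scaling, pseudocounts of 0.1 and 4, filters, the variance model and left-out libraries. Promoters and positions came from RefSeq (GRCm38.p6).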

Additional observations from a re-analysis of the deposited data

Results flagged for a closer look

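For 114 genes the 4 values of each group in the fit were examined for 1 library standing apart from the other 3 (Dixon's test at the 95% level), which 21 of 456 groups did, about the 1 in 20 that chance gives. No difference between the arms passed adjustment with all libraries. In KODam_HetFetus, replicate 4 stood high for Ehhadh (7.71, others 7.00 to 7.04), replicate 3 low for Pdk4 (5.79, others 6.84 to 6.98) and Fam47e (-5.91, others -2.83 to -2.38), and replicate 1 low for Igf1 (-0.057, others 0.34 to 0.39). In Cpt2LKODam_FloxFetus, replicate 4 stood low for Ltf (5.73), Ncf1 (3.32), Otc (3.06) and Slc10a1 (4.06) and high for Csnk2a2 (2.63). Replicate 2 of that group stood low for Alb (14.67) and high for Car8, a carbonic anhydrase-related gene (1.56), and replicate 3 high for Mthfd2 (4.32).

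Among the controls, HetDam_HetFetus replicate 4, the library with high muscle markers, stood low for Acot1 (3.03, others 4.41 to 4.68), Acot2 (0.79, others 1.84 to 2.01) and Pck1 (0.96, others 4.74 to 5.34) and high for Igtp (4.42). Replicate 1 of that group stood low for Hsd17b6 (0.27) and replicate 3 high for Lyz2 (8.95) and Per1 (3.19). In FloxDam_FloxFetus, replicate 3 stood high for Elovl6 (4.04) and replicate 2 low for Scd2 (4.46).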

How the results depend on the processing

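Sign was followed under 34 alternatives only for the 215 genes named or described that had a value. None of the 201 called ones changed sign, whereas 6 of the 14 not called did (Ppara, Cpt2, Cyp4a10, Vnn1, Fkbp5 and Igf1). The pooled medians of 12 of 46 gene lists changed sign too, among them mitochondrial oxidation (-0.11 to 0.07) and the lipid droplet (-0.16 to 0.04). Of these 201 called genes, 114 kept their call in every alternative. Leaving out both presumed littermates of KODam_HetFetus gave 1293 pooled rises and 736 falls, 626 falls in the Ppara arm and 306 shared rises without overlap. Leaving out Cpt2LKODam_FloxFetus replicate 4 as well (chosen after seeing the data) gave 566 and 330 pooled calls, 738 falls in the Ppara arm, 1 call in the Cpt2 arm, 23 differences between the arms and 320 shared rises without overlap. Litter as a random block gave 1559 rises and 908 falls (consensus correlation 0.746). Trimmed-mean centring gave 1922 rises and 1808 falls (51.5% rises against 59.8%) and 1 difference between the arms, and quantile normalization of the tested genes 199 shared falls without overlap. The stricter filter, with 7094 genes tested, gave 1900 rises in the Ppara arm and 121 shared rises without overlap. Without HetDam_HetFetus replicate 4 and Cpt2LKODam_FloxFetus replicate 2 (chosen after seeing the data) 327 rises and 368 falls were without overlap, a count that grows by construction when libraries are left out.

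Leaving out 1 library at a time gave 1555 to 2560 pooled rises and 1042 to 1663 falls. In the Ppara arm it gave 2364 to 2973 rises and 1025 to 1673 falls, in the Cpt2 arm 0 to 1 calls, and in both arms 0 to 1. Shared changes without overlap then numbered 198 to 395 rises and 133 to 344 falls. Differences between the arms numbered 0 to 549, the 549 without Cpt2LKODam_FloxFetus replicate 4. Replicate numbers did not pair the samples (correlations of deviations -0.23 to -0.08 in the Ppara arm and -0.02 to 0.21 in the Cpt2 arm), and with the replicate block 1525 genes rose and 1161 fell. Unknown depth limits the low values, such as those of Cidec and Dnaic2.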
